A study of Mus musculus with 12 samples.

Results

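The effect of a CD40 agonist on type 1 conventional dendritic cells (cDC1) was compared in mice that carried no tumor. The comparison sets the 3 libraries labelled NoTumor-CD40 (agonist given) against the 3 labelled NoTumor-NoCD40 (no agonist), which are 6 of the 12 libraries of the series. All 6 come from cDC1 of the inguinal lymph node, and the other 6 libraries are their counterparts from mice with a subcutaneous KPC tumor, a mouse pancreatic cancer model. The labels give no strain, sex, age, dose, time after the agonist or sort gates, and do not state that each library stands for its own animal. The p-values therefore measure only the spread between these samples, which may be technical. The text calls the NoTumor-CD40 libraries treated and the NoTumor-NoCD40 libraries untreated, and lists values in the order of libraries 1, 2 and 3. Libraries 1 of both groups share a title prefix, as do libraries 2, while the third untreated and the third treated library have different prefixes.

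CD40 is a receptor of the tumor necrosis factor receptor superfamily that helper T cells engage through CD40 ligand. Its signal, carried by TRAF adaptors and NF-kB, licenses dendritic cells: they mature, present antigen with costimulatory ligands and make cytokines. cDC1 are the dendritic cells best known for presenting antigen from dead cells to CD8 T cells, and they depend on the transcription factors BATF3 and IRF8. Type I and type II interferons also act on these cells and switch on antiviral genes through STAT and IRF factors.

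Expression was described across 18095 genes and, within them, across 53 lists of gene families and pathways. Levels are normalized CPM (counts scaled to each library's total as adjusted by TMM) and differences are log2 fold changes of treated over untreated with a standard error (SE). A gene passed the threshold when its Benjamini-Hochberg adjusted p over all genes was under 0.05 in the quasi-likelihood test of edgeR, and the words rose and fell are used only for such genes. The 12 libraries held 22855143 to 27163393 expected counts each. The defining cDC1 transcripts were present in all 6 libraries. Xcr1, a chemokine receptor of cDC1, stood at 515, 780 and 682 CPM in the untreated libraries and at 249, 533 and 49.5 CPM in the treated ones. The groups overlapped, because the second treated library lay above the first untreated one, and Xcr1 did not pass (log2 fold change -1.25, edgeR adjusted p = 0.356).

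The treated libraries were not alike. Treated library 2 had a correlation of log2 CPM of 0.937, 0.941 and 0.940 with the 3 untreated libraries, against 0.926 and 0.918 with the other treated ones. The summed level of 13 markers of mature migratory dendritic cells was 20700, 12000 and 7870 CPM in the untreated libraries and 30100, 18200 and 39100 CPM in the treated ones. The second treated library lay below the first untreated library in this sum. The summed level of 15 cDC1 markers was 9610, 13600 and 12800 CPM in the untreated libraries and 6020, 10500 and 2960 CPM in the treated ones, lowest in treated library 3. Of the 13 mature markers 2 passed the threshold and 10 were higher at an unadjusted p under 0.05 (against 9.89% of all genes), with a median log2 fold change of 1.09. Of the 15 cDC1 markers edgeR called 0, 1 was higher at an unadjusted p under 0.05, and the median was -0.94. In bulk samples, fewer cells of a type and less RNA per cell cannot be told apart, and the part of these marker shifts in the results that follow was not tested.

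**Figure D1:**
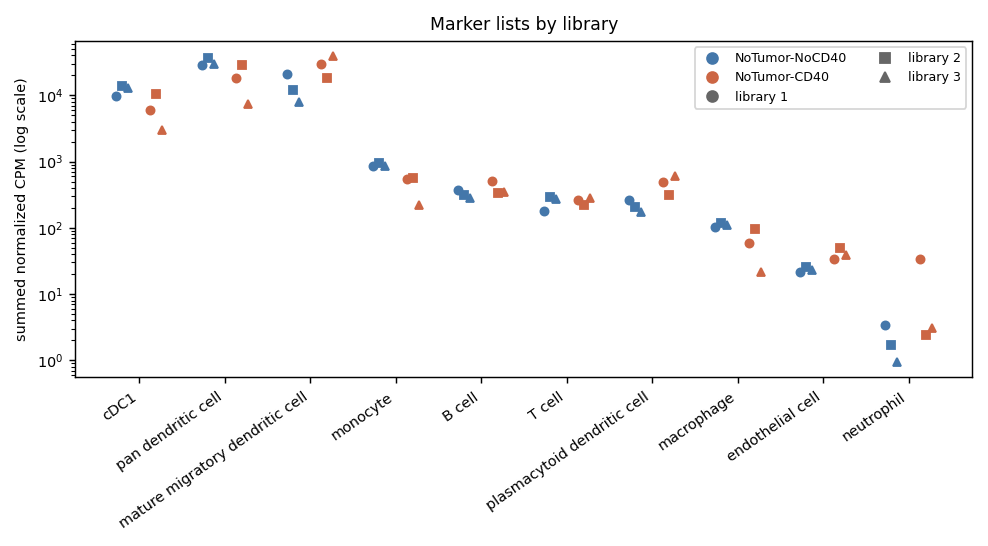
Summed normalized CPM (log scale) of the marker lists of dendritic and other cells, with 1 point per library; colors mark the 2 groups and shapes the library number. The mature list runs from 7870 to 39100 CPM and overlaps between groups, and the lists of other cell types lie below 1000 CPM in every library.

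Markers of other cells made up little of each library. The B cell list summed to 279 to 368 CPM in the untreated and 332 to 504 CPM in the treated libraries, the T cell list to 178 to 292 and 220 to 284 CPM, and the macrophage list to 102 to 119 and 21.6 to 94.8 CPM. Cd68 made up most of the untreated macrophage sums, at 85.3, 105 and 97.9 CPM untreated and 36.2, 83.3 and 10.2 CPM treated. The median of the macrophage list was -0.1, with 1 member higher and 0 lower at an unadjusted p under 0.05. The monocyte list was lower in every treated library, at 219 to 561 CPM against 849 to 967 CPM, although its single called member, Ly6c2, rose (1.63). Lyz2, Ccr2, Plac8 and S100a4 made up most of this sum, and Csf1r, Cx3cr1, Chil3 and Fcgr1 reached at most 14.5 CPM in any library. Of the 10 monocyte markers 3 were lower and 1 was higher at an unadjusted p under 0.05. The plasmacytoid dendritic cell list was higher in every treated library, at 318 to 599 CPM against 176 to 260 CPM, and its single called member, the transcription factor gene Spib, carried that gap. Spib stood at 68.9, 36.1 and 22.7 CPM untreated and 239, 144 and 369 CPM treated (2.56 ± 0.42), and without it the sums were 191, 168 and 153 CPM untreated and 253, 174 and 229 CPM treated, which overlap. Of the 10 members of this list 4 were higher and 0 lower at an unadjusted p under 0.05, with a median of 0.47. Without passing, Runx2 and Ly6d had log2 fold changes of 1.18 and 2.06, and Ccr9 and Siglech of -0.94 and -0.90. Neutrophil markers summed to 34.3 CPM in treated library 1 and to at most 3.44 CPM in the other 5 libraries.

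Across all genes, 261 of 18095 passed the threshold, which is 1.44%, and they were mostly increases: 246 genes rose (1.36%) and 15 fell (0.0829%). The median log2 fold change was 1.59 among the genes that rose and -1.21 among those that fell, beside -0.04 over all genes tested. By kind, 229 of the 246 and 13 of the 15 are protein-coding genes. Each of the 261 separated the 3 treated from the 3 untreated libraries without overlap, as did 11.2% of all genes upward and 12% downward. Treated library 2 was the lowest treated library for 220 of the 246 (89.4%, against 35.2% of all genes), and treated library 3 was the highest for 199 (80.9%, against 33.1% of all genes). Untreated library 1 was the highest untreated library for 180 of them, 73.2%. The sum of the mature dendritic cell markers had the same order, lowest in library 2 and highest in library 3 among the treated libraries. At an unadjusted p under 0.05, 9.89% of all genes were higher and 8.47% lower. DESeq2 called 922 genes (5.10%) and limma-voom 120 (0.663%). Leaving out 1 library changed edgeR's count widely. It was 128, 23 and 22 without untreated library 1, 2 and 3 (0.651%, 0.116% and 0.111% of the genes tested then), and 80, 947 and 48 without treated library 1, 2 and 3 (0.408%, 4.82% and 0.243%).

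**Figure D2:**
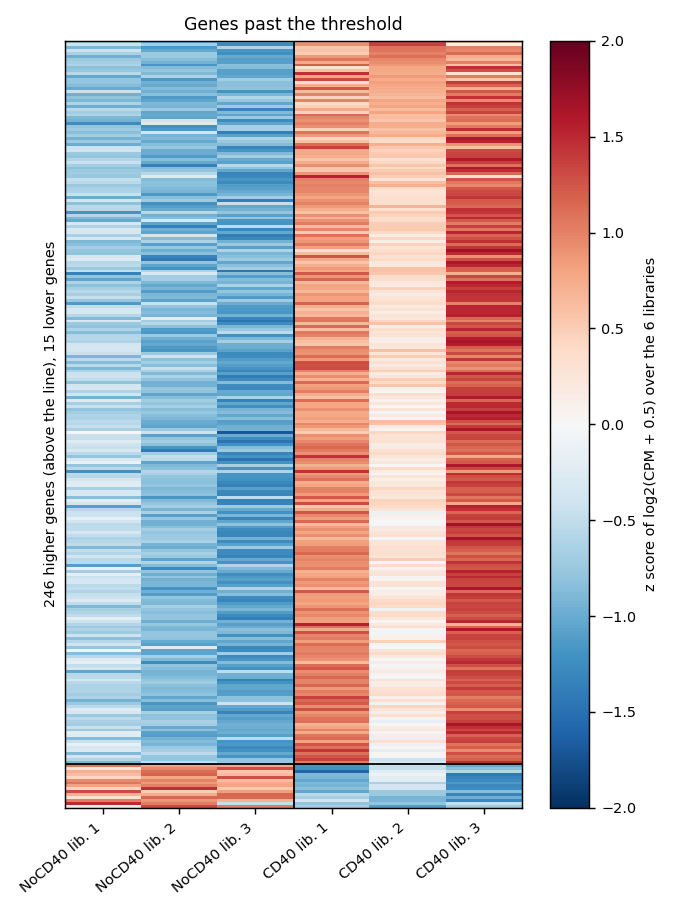
Each row is 1 of the 261 genes past the threshold and each column 1 library; color gives the z score of log2(CPM + 0.5) over the 6 libraries. The 246 higher genes are palest in treated library 2 and darkest in treated library 3.

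The ratios within a shared title prefix describe the same genes from 2 pairs of libraries each. Among the 246 genes that rose, the median log2 ratio of treated over untreated was 1.30 in the first pair and 1.02 in the second, beside 0 in both pairs over all genes. The ratio was larger in the first pair for 178 of them, and 119 exceeded 1 in both pairs. The sign of these ratios is fixed by the absence of overlap and is not separate evidence.

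**Figure D3:**
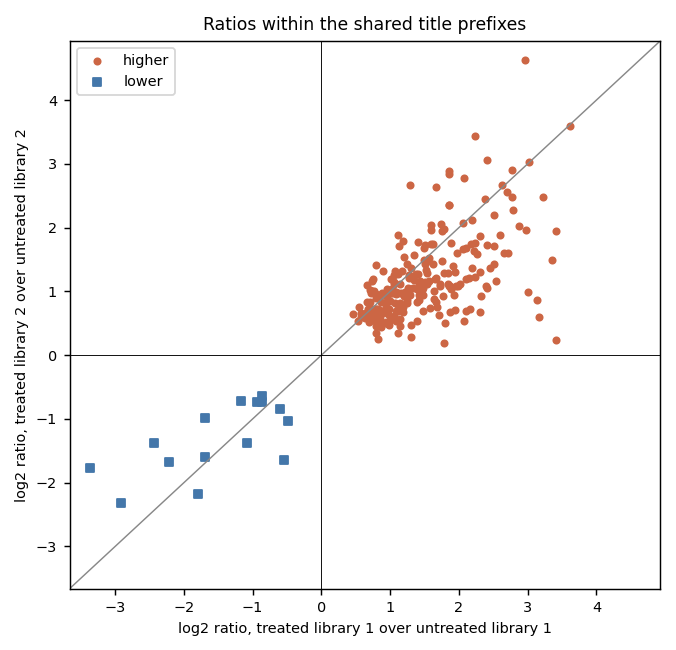
Log2 ratios of treated over untreated library 1 (horizontal) and of treated over untreated library 2 (vertical), each after adding 0.5 CPM, for the genes past the threshold; the diagonal marks equal ratios. Most of the 246 higher genes lie under the diagonal, with 178 larger in the first pair.

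Of the 53 lists, 26 had at least 1 member past the threshold. The 53 lists together hold 1851 distinct genes that were tested. Of these 51 passed, 47 upward, beside 1.44% of all genes in either direction and 1.36% upward. The remaining 27 lists had none among 891 tested members by edgeR, with 228 at an unadjusted p under 0.05, 41 called by DESeq2 and 0 called by limma-voom. Of all genes, 9.89% were higher and 8.47% lower at an unadjusted p under 0.05, and DESeq2 called 5.1%.

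**Figure D4:**
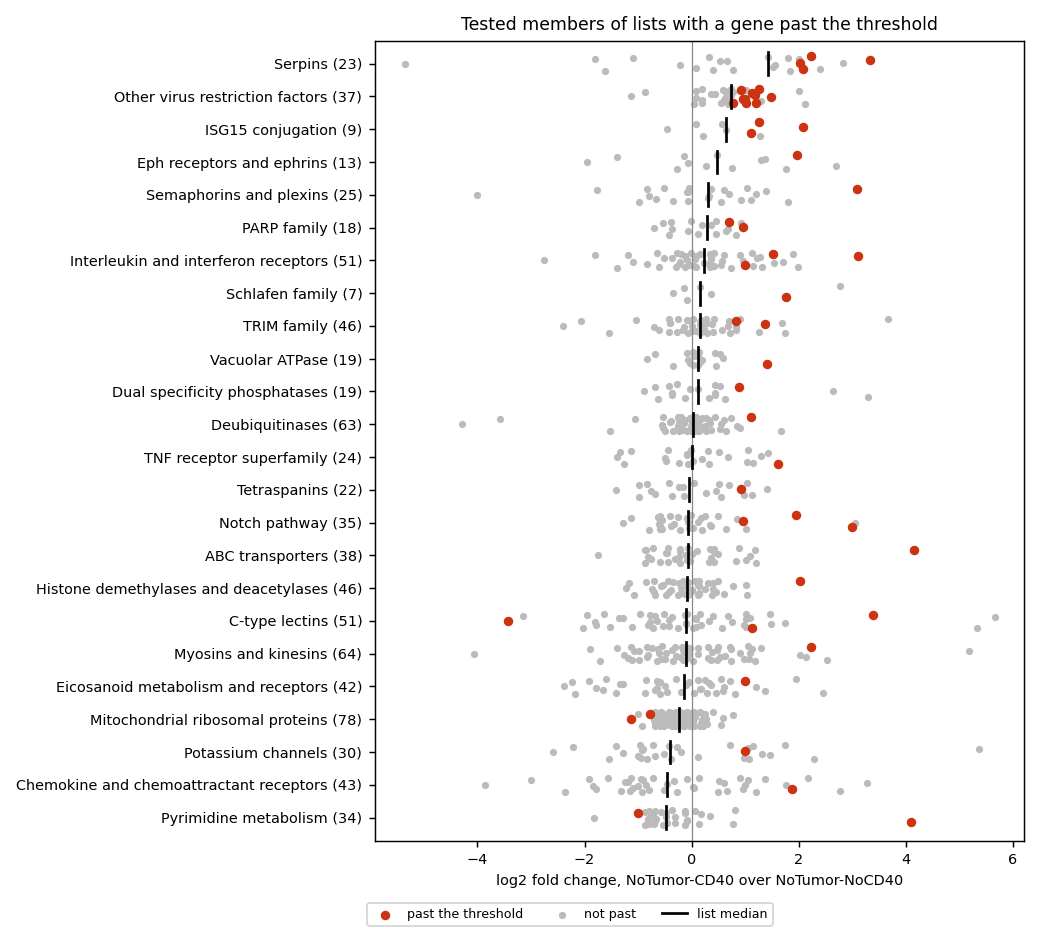
Log2 fold change of every tested member of 24 of the 26 lists with a gene past the threshold; red points passed, grey points did not, black ticks are list medians and numbers in brackets are members tested. Serpins and virus restriction factors have the highest medians, 1.42 and 0.73, and pyrimidine metabolism the lowest, -0.47.

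Antiviral effector families beyond the oligoadenylate synthetases rose in part. In the 11 lists of interferon-related families 18 genes rose and none fell, with a median log2 fold change of 1.12 among the 18. Among them are genes for proteins that act on viral RNA, that attach or remove the ubiquitin-like ISG15, or that add ADP-ribose. By count the most increases were among 37 restriction factors, where 10 rose (27%, against 1.36% of all genes), 35 had a value above 0, and the median was 0.73. By share the ISG15 conjugation list was higher, with 3 of 9 (33.3%).

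The ISG15 pathway attaches the small protein ISG15 to other proteins during the antiviral response. Isg15 itself (ENSMUSG00000035692, GRCm38 chromosome 4, 156199424 to 156200818) stood at 32.4, 30.4 and 18 CPM in the untreated libraries and at 141, 70 and 131 CPM in the treated ones. Every treated library lay above every untreated one, and treated library 2 was the lowest of the 3. The log2 fold change was 2.08 ± 0.27 (SE, n = 3 per group; edgeR adjusted p = 0.00335). Usp18, the protease that removes ISG15 and restrains interferon receptor signaling, stood at 48.7, 42.2 and 37.6 CPM untreated and 111, 67.2 and 99.8 CPM treated. Herc6, an ISG15 ligase of mice, stood at 51.5, 38.4 and 36.8 CPM untreated and 116, 63.8 and 122 CPM treated. Both separated the groups with the lowest treated value in library 2, and both rose (1.11 ± 0.22 and 1.25 ± 0.27, edgeR adjusted p = 0.0274 and 0.0371). Of 9 tested members of this list, 3 rose and 8 were above 0, with a median of 0.65.

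The promoter of Isg15 is shown because this gene had the lowest p in its list. It holds 3 overlapping matches, in a single stretch, to a core of the interferon-stimulated response element (ISRE). The ISRE is the sequence bound by interferon regulatory factors, and binding was not measured here. The stretch spans 250 bases before to 50 bases after the start of transcription in RefSeq (GRCm38.p6, chr4:156200769-156201068, minus strand), and capitals mark overlapping matches to the ISRE core GAAANNGAA, read on both strands. The matches begin 78, 72 and 66 bases before the start, and 1 match to an NF-kB type motif, GGNNTTTCC on either strand, begins 41 bases before it.
Isg15 promoter: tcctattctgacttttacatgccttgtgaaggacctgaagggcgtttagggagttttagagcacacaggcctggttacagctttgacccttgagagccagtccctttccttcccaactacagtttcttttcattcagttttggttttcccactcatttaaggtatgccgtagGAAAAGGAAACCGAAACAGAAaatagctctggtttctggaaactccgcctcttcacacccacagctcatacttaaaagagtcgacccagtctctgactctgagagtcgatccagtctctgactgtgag

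The same core is shown in 8 short stretches, each with 10 bases on either side, for the genes with the lowest p among those that rose and had a match. They show matches to the core in promoters of antiviral genes (Oas3, Rsad2, Oas1a), of the checkpoint ligand gene Cd274, of the receptor gene Tnfrsf14, of the granzyme B inhibitor gene Serpinb9 and of Ncoa7. All are RefSeq sequence of GRCm38.p6, read along the gene's strand, with the first match of the promoter in capitals. In 4 of the 8 the capitals read in the reverse direction.
Oas3, chr5:120777716-120777744: gcagggaggaGAAAACGAAagtgaaggga
Ncoa7, chr10:30655842-30655870: ctccttgaggGAAACAGAAactcaatctt
Isg15, chr4:156200878-156200906: tatgccgtagGAAAAGGAAaccgaaacag
Cd274, chr19:29367352-29367380: actgggtggcTTCGGTTTCacagacagcg
Rsad2, chr12:26456553-26456581: tggtccaactTTCATTTTCagaaaacaga
Tnfrsf14, chr4:154928122-154928150: tattttttctTTCATTTTCacttttcctt
Oas1a, chr5:120907527-120907555: cccttctcggGAAATGGAAactgaaaatc
Serpinb9, chr13:33004486-33004514: tcctgctactTTCACTTTCtctaaggacc

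Across promoters the ISRE core was present in 32 of the 178 genes that rose and matched a RefSeq promoter by symbol (18%), beside 9.09% of the 11558 tested genes with a promoter and 9.76% of all 27025. It was in 3 of the 10 genes that fell and had a promoter, and in 3 of the 14 such genes among the 18 interferon-family genes (21.4%), so its presence was not limited to genes that rose. The NF-kB type motif was in 11.8% of the genes that rose and 7.41% of those tested. The GAS core TTCNNNGAA, bound by STAT dimers and searched on both strands, was in 8.43% and 8.44%. The promoter of Slfn1 held none of the 3 motifs in this window, nor did that of Mov10, and Trim35 had no entry. These shares are descriptions of letters in a fixed window.

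Trim35, a ubiquitin ligase of the tripartite motif family, stood at 162, 160 and 153 CPM in the untreated libraries and at 349, 315 and 554 CPM in the treated ones. The untreated values were nearly equal and the groups were far apart, with treated library 3 the highest. It rose by 1.36 ± 0.20 (SE) on the log2 scale (edgeR adjusted p = 0.00659). Trim34a stood at 41.7, 36.6 and 36 CPM untreated and 72, 61.2 and 68.4 CPM treated, and also rose (0.82 ± 0.18). It has close copies in the mouse genome, so the share of reads assigned to it is less certain. Of 46 tested TRIM genes 2 rose and none fell, and the median was 0.15.

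Mov10, an RNA helicase that restricts retroviruses and retrotransposons, stood at 21, 18.2 and 25.1 CPM untreated and 56, 37.7 and 60.8 CPM treated. The lowest treated value, again in library 2, exceeded the highest untreated value, and Mov10 rose (1.26 ± 0.22, edgeR adjusted p = 0.0152). Pml, the organizer of PML nuclear bodies, stood at 99.2, 98.4 and 94.9 CPM untreated and 219, 146 and 229 CPM treated. Sp110, a nuclear body protein of the same kind, stood at 157, 145 and 134 CPM untreated and 308, 204 and 356 CPM treated. Both rose by about the same size, 1.02 ± 0.19 and 0.99 ± 0.19 on the log2 scale. Adar, which edits adenosine in double-stranded RNA, stood at 136, 126 and 146 CPM untreated and 251, 199 and 330 CPM treated (0.93 ± 0.18). Helz2, a nuclear helicase, stood at 49.3, 58.7 and 53.6 CPM untreated and 139, 94.8 and 134 CPM treated (1.18 ± 0.24). N4bp1, an inhibitor of NF-kB signaling with RNase activity, stood at 96.3, 80.6 and 80 CPM untreated and 176, 145 and 273 CPM treated (1.21 ± 0.23). All 3 rose with no overlap between the groups. The 4 further restriction factors past the threshold, listed here only to complete the count of 10, were Sp140 (1.49 ± 0.30), Xaf1 (1.13 ± 0.23), Znfx1 (0.95 ± 0.20) and Samhd1 (0.78 ± 0.18), a dNTP hydrolase and the most abundant of them in counts.

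The list was not uniform. Eif2ak2, the double-stranded RNA kinase PKR, stood at 45.8, 39.8 and 45.4 CPM untreated and 59.5, 44.4 and 45.5 CPM treated, with overlapping groups and a value of 0.19 ± 0.23. Sp100 stood at 148, 188 and 145 CPM untreated and 186, 189 and 137 CPM treated, with a value of 0.09 ± 0.22. These 2 genes, chosen after their values were seen, did not pass, and Pnpt1, a mitochondrial RNA exonuclease, had a value of -0.88 ± 0.26 without passing (edgeR adjusted p = 0.109).

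Poly-ADP-ribose polymerases of the macrodomain group rose together with a partner ligase. Parp14 stood at 87.1, 91.9 and 97.3 CPM untreated and 171, 144 and 219 CPM treated (0.95 ± 0.19). Parp9 stood at 73.7, 72.6 and 72.6 CPM untreated and 101, 115 and 139 CPM treated (0.70 ± 0.16). Dtx3l, a deltex-type ubiquitin ligase that binds PARP9, stood at 135, 113 and 116 CPM untreated and 221, 189 and 294 CPM treated (0.95 ± 0.18). All 3 separated the groups and passed (edgeR adjusted p = 0.0229, 0.0490 and 0.0195). They lie close together on chromosome 16, at 35832874 to 35871544, 35938470 to 35972605 and 35926511 to 35939151 in that order, and the annotated ends of Parp9 and Dtx3l overlap, so reads there could count for either. Of 18 PARP genes 2 rose, and the median was 0.28.

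Slfn1, a Schlafen family gene of growth control in lymphoid cells, stood at 8.92, 7.98 and 8.53 CPM untreated and 33.3, 20.3 and 32.9 CPM treated. The untreated libraries hardly differed, the treated ones were all higher, and Slfn1 rose (1.77 ± 0.32, edgeR adjusted p = 0.0156). It was the member past the threshold among 7 tested Schlafen genes, whose median was 0.16.

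Several families with interferon-responsive members did not pass. Of 12 HIN-200 genes, DNA sensors of the Ifi200 cluster, edgeR called 0, with 5 higher at an unadjusted p under 0.05, 3 called by DESeq2 and 0 by limma-voom, and a median of 0.48. Ifi205, the most abundant per transcript length and itself a cDC1 marker, stood at 433, 619 and 457 CPM untreated and 378, 481 and 122 CPM treated, so the groups overlapped (-0.62 ± 0.57). Ifi211 stood at 137, 189 and 143 CPM untreated and 207, 229 and 152 CPM treated (0.32 ± 0.34). Of 8 immunoproteasome and activator genes edgeR called 0, with 1 at an unadjusted p under 0.05 and 0 by DESeq2 and limma-voom. Psme2, a subunit of the proteasome activator PA28, stood at 841, 692 and 473 CPM untreated and 1190, 818 and 1320 CPM treated, where treated library 2 fell within the untreated range (0.73 ± 0.27). The 35 standard proteasome genes had a median of 0.07 and 0 calls by edgeR, DESeq2 and limma-voom, with 5 at an unadjusted p under 0.05.

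Nonclassical MHC class I genes, apolipoprotein L genes and GIMAP GTPases also had 0 calls by edgeR among 17, 8 and 8 tested. At an unadjusted p under 0.05 there were 4, 1 and 0, DESeq2 called 2, 0 and 0, and limma-voom called 0 of each. H2-Q7, a class Ib gene with close copies, stood at 659, 488 and 474 CPM untreated and 1060, 729 and 1210 CPM treated. Its groups did not overlap, yet it did not pass (0.88 ± 0.28, edgeR adjusted p = 0.132). Apol7c, which dendritic cells express and which is linked to cross-presentation, stood at 1760, 1290 and 942 CPM untreated and 1610, 1380 and 1560 CPM treated, with overlapping groups (0.19 ± 0.36).

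Of the 18 interferon-family genes that rose, treated library 2 was the lowest treated library for 16. DESeq2 called all 18 and limma-voom called 14. Without treated library 2 all 18 passed, without treated library 1 or 3 there were 2 and 3, and without untreated library 1, 2 or 3 there were 3, 1 and 1. When treated library 2 and untreated library 3 were both left out, an alternative added after the data were seen, 12 passed, beside 202 of all genes (1.04%).

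Receptors, ligands and other signaling genes formed the next group. In the 12 lists of signaling families, 12 genes rose and none fell, Usp18 and Dtx3l from above among them. The others encode cytokine receptors and a receptor antagonist, the receptors HVEM and CCR7, Notch ligands, a semaphorin, an ephrin and a feedback phosphatase. The median log2 fold change of the 12 was 1.75. These 12 came from 8 of the lists, with 1 to 3 calls each among 13 to 63 members tested, and the other 4 lists had none. In the 8 lists the share that rose was 1.59% to 8.57%, beside 1.36% of all genes.

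Il4ra, the alpha chain of the interleukin 4 and interleukin 13 receptors, stood at 214, 175 and 138 CPM in the untreated libraries and at 478, 295 and 726 CPM in the treated ones. The groups did not overlap, and treated library 3 was more than 2 times as high as treated library 2. It rose by 1.51 ± 0.31 (SE) on the log2 scale (edgeR adjusted p = 0.0313). Il3ra, the receptor chain for interleukin 3, stood at 34.9, 23.3 and 28.4 CPM untreated and 68.2, 45.3 and 59.1 CPM treated (1.0 ± 0.23). Il1rn, the secreted interleukin 1 receptor antagonist, which the list holds by its symbol, stood at 2.37, 0.614 and 0.574 CPM untreated and 15.8, 4.63 and 10.5 CPM treated (3.10 ± 0.66). These 3 were the calls among 51 genes, whose median was 0.23. The common gamma chain Il2rg, named after its values were seen, stood just outside the threshold (1.27 ± 0.29, edgeR adjusted p = 0.0502) at 127, 96.6 and 83.4 CPM untreated and 288, 176 and 276 CPM treated. Ifngr1, a chain of the interferon gamma receptor chosen in the same way, stood at 251, 342 and 335 CPM untreated and 124, 224 and 62.8 CPM treated, which is the opposite sign (-1.18 ± 0.55, adjusted p = 0.271 by edgeR).

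Tnfrsf14 encodes HVEM, which binds the T cell receptors BTLA and CD160 and the cytokine LIGHT. It stood at 15, 22.7 and 19.6 CPM untreated and 47.9, 46.2 and 82.2 CPM treated. The first and second treated libraries were level and the third was higher, all above the untreated range. It rose by 1.62 ± 0.25 (edgeR adjusted p = 0.00758) and was the single call among 24 receptors of the superfamily, whose median was 0.01. Fas and Relt, chosen after their values were seen, had values of 1.42 ± 0.39 and 1.15 ± 0.29 without passing, and Tnfrsf13b had -1.33 ± 0.34 (edgeR adjusted p = 0.0880, 0.0650 and 0.0678). Among 43 chemokine and chemoattractant receptors Ccr7 alone passed, and the list's median was -0.46.

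Notch ligands rose without a change past the threshold in the receptors. Dll4, a Delta-type ligand, stood at 2.64, 0.844 and 0.984 CPM untreated and 12.7, 8.64 and 14.7 CPM treated. It was low in every untreated library and separated the groups (3.00 ± 0.57, edgeR adjusted p = 0.0216). Jag1, a Jagged-type ligand, stood at 79.1, 57.6 and 51.2 CPM untreated and 227, 146 and 348 CPM treated, and it rose as well (1.94 ± 0.41, edgeR adjusted p = 0.0326). Per transcript length Jag1 was the more abundant ligand after treatment, at a mean of 35.9 TPM against 1.75 TPM for Dll4. Among the receptors, named for their role after the values were seen, Notch2 stood at 231, 400 and 382 CPM untreated and 162, 328 and 195 CPM treated, with overlapping groups (-0.56 ± 0.37). Notch1 had a value of -0.40 ± 0.31 and Notch4 of -1.14 ± 0.75. Hes1, a target gene of the pathway, was low throughout, at 4.09, 2.88 and 2.79 CPM untreated and 2.06, 2.43 and 2.14 CPM treated (-0.56 ± 0.48). Of 35 pathway genes 3 rose, Dtx3l included, and the median was -0.07.

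Sema7a, a membrane-anchored semaphorin that acts on integrins and plexin C1, stood at 94.3, 83.2 and 57.8 CPM untreated and 691, 341 and 976 CPM treated. The lowest treated library was still well above all untreated ones. It rose by 3.09 ± 0.35 (edgeR adjusted p = 0.00164), the single call among 25 semaphorins, neuropilins and plexins, whose median was 0.31. Plxnc1, named as its receptor after the values were seen, stood at 643, 451 and 407 CPM untreated and 722, 729 and 845 CPM treated (0.61 ± 0.25, edgeR adjusted p = 0.224). Efna2, a ligand of Eph receptors, stood at 10.4, 7.71 and 7.46 CPM untreated and 35.7, 17.2 and 47.5 CPM treated (1.97 ± 0.44), the single call among 13 genes.

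Dusp5, a nuclear phosphatase of the kinase ERK, stood at 57.9, 54.3 and 43.9 CPM untreated and 91.7, 87.4 and 107 CPM treated. The treated libraries were close to each other, unlike those of most genes here, and Dusp5 rose (0.88 ± 0.19, edgeR adjusted p = 0.0370). Immediate early factors showed no call in the other direction. Of 42 AP-1, ATF and related factors edgeR called 0, with 6 higher and 7 lower at an unadjusted p under 0.05, 5 called by DESeq2 and 0 by limma-voom. Fos, the most abundant per transcript length, stood at 1050, 1160 and 1460 CPM untreated and 282, 771 and 106 CPM treated. All treated libraries were lower but differed among themselves over 7 times, and the value of -1.66 ± 0.63 did not pass (edgeR adjusted p = 0.195). Junb stood at 416, 464 and 468 CPM untreated and 391, 467 and 495 CPM treated, with a value of 0.00 ± 0.16.

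The KLF and Ikaros factors, RGS proteins and SLAM receptors had 0 calls by edgeR among 19, 14 and 11 tested. At an unadjusted p under 0.05 there were 4, 6 and 3, DESeq2 called 3, 0 and 0, and limma-voom called 0 of each. Klf6 stood at 527, 444 and 437 CPM untreated and 679, 514 and 831 CPM treated (0.52 ± 0.18), and Slamf7, a self-binding SLAM receptor, at 339, 426 and 407 CPM untreated and 461, 454 and 503 CPM treated (0.27 ± 0.16). Among 63 deubiquitinases Usp18 was the single call.

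For all 12 signaling genes treated library 2 was the lowest treated library. Without treated library 2 all 12 passed, without treated library 1 or 3 there were 2 each, and without untreated library 1, 2 or 3 there were 6, 2 and 1. Limma-voom called 5 of the 12 and DESeq2 all 12.

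Protease inhibitors and surface lectins were the next group, with 7 genes that rose and 1 that fell. The serpin list had the highest median of the 26 lists with a call, 1.42, and 4 of its 23 tested members rose (17.4%). The shares that rose were 3.92% of the lectins and 4.55% of the tetraspanins, beside 1.36% of all genes.

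Serpinb9 encodes an inhibitor of granzyme B, the protease of cytotoxic T cells. It stood at 388, 308 and 209 CPM untreated and 1350, 753 and 1570 CPM treated, mean 302 ± 90 and 1220 ± 421 CPM (SD, n = 3 each). The groups were far apart, and the log2 fold change was 2.02 ± 0.33 (SE; edgeR adjusted p = 0.0111). Serpinb9b, its neighbour on chromosome 13 and a close copy, stood at 4.82, 2.99 and 0.369 CPM untreated and 9.37, 8.25 and 21.2 CPM treated (2.23 ± 0.51), and some of its reads could belong to Serpinb9. Serpinc1, antithrombin, stood at 10.5, 8.13 and 6.03 CPM untreated and 33.4, 22.8 and 48.8 CPM treated (2.08 ± 0.43). These 3 were lowest among the treated libraries in library 2 and highest in library 3.

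Lectin receptors moved in both directions. Ly75, the endocytic receptor DEC-205, stood at 337, 276 and 216 CPM untreated and 604, 423 and 779 CPM treated, and it rose (1.12 ± 0.24, edgeR adjusted p = 0.0369). Clec4e, the receptor Mincle for microbial glycolipids, stood at 0.383, 0.269 and 0.0820 CPM untreated and 4.65, 1.22 and 2.06 CPM treated (3.38 ± 0.72). Clec4b1, another member of the lectin list, stood at 2.75, 2.23 and 2.05 CPM untreated and 0.206, 0.353 and 0.0793 CPM treated. It was lower in every treated library and fell by 3.43 on the log2 scale (SE 0.65, edgeR adjusted p = 0.0111). The last 2 were detected at few counts, and the Clec4 genes lie in a cluster of related copies. Of 51 lectin genes 2 rose and 1 fell, with a median of -0.11.

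Cd81, a tetraspanin, stood at 186, 163 and 125 CPM untreated and 309, 244 and 348 CPM treated and rose (0.93 ± 0.21). Siglecs and Fc receptors, and the ADAM and MMP proteases, had 0 calls by edgeR among 39 and 44 tested. At an unadjusted p under 0.05 there were 13 and 8, DESeq2 called 2 of each, and limma-voom called 0. Tyrobp, the signaling adaptor DAP12, stood at 198, 211 and 154 CPM untreated and 177, 174 and 153 CPM treated (-0.16 ± 0.18). Adam23, abundant in these cells, stood at 456, 396 and 386 CPM untreated and 385, 524 and 362 CPM treated (0.04 ± 0.19). Of the 8 surface and serpin genes past the threshold, all 8 passed without treated library 2, while 1 and 0 passed without treated library 1 and 3, and 3, 0 and 0 without untreated library 1, 2 and 3. DESeq2 called 7 of them and limma-voom 1.

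**Figure D5:**
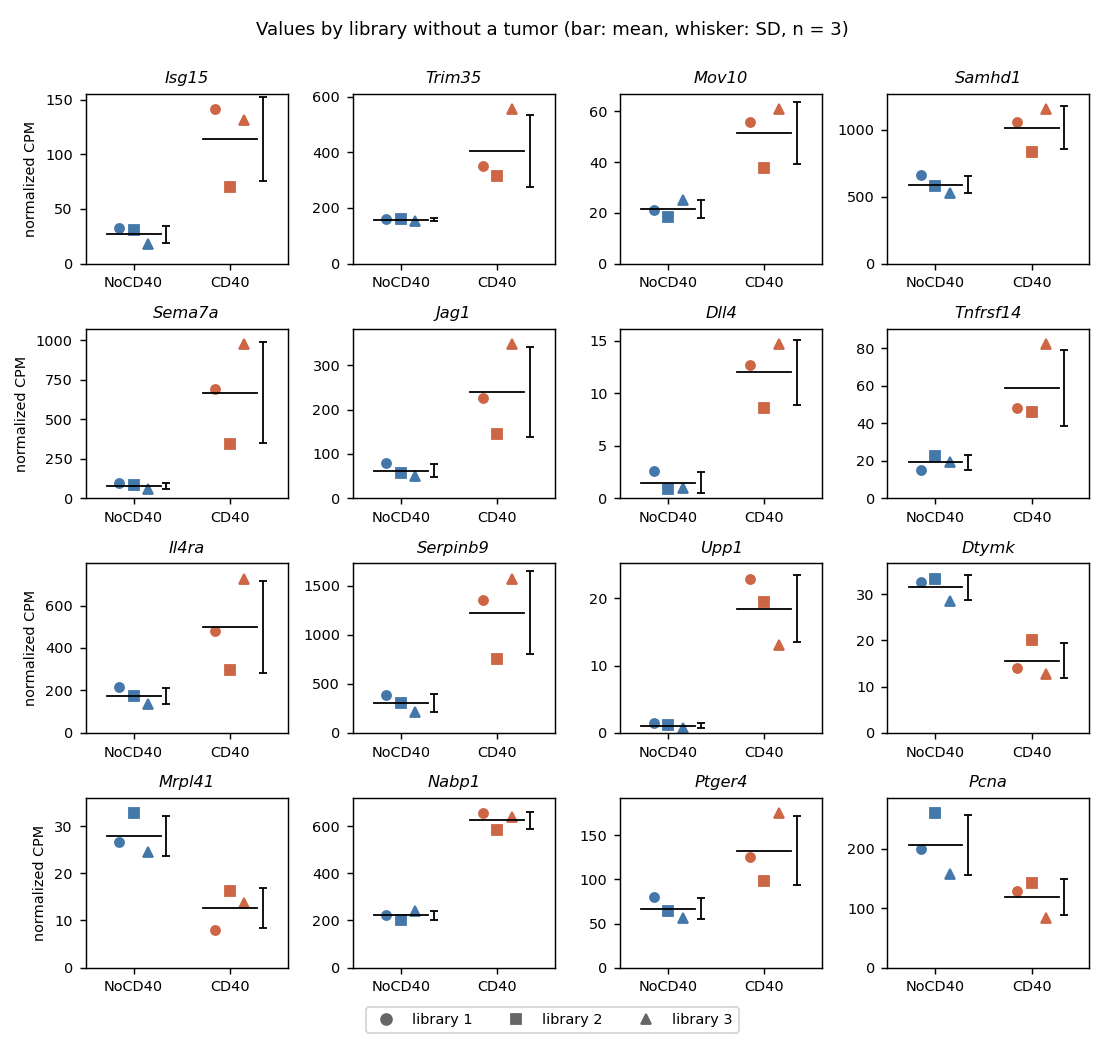
Normalized CPM of 16 genes in the 3 untreated (blue) and 3 treated (red) libraries; the line is the mean, the whisker the SD, and shapes give the library number. Treated library 3 is the highest in Sema7a, Jag1, Il4ra and Serpinb9, while the treated libraries of Nabp1 lie within 582 to 654 CPM.

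In metabolism the calls were few, and 9 of the 11 lists had a median below 0. Across 11 lists, 3 genes rose (Abca13, Upp1 and Ptger4) and 1 fell (Dtymk), and 7 of 34 pyrimidine genes and 4 of 29 serine and one-carbon genes had a value above 0, beside 47.7% of all genes. The medians of the pyrimidine, serine and one-carbon, purine, and arginine and polyamine lists were -0.47, -0.43, -0.37 and -0.33. The tryptophan and NAD list and the oxidative stress list had medians of 0.09 and 0.11, with 6 and 11 genes higher and 3 and 4 lower at an unadjusted p under 0.05.

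Upp1 encodes uridine phosphorylase, which splits uridine into uracil and ribose phosphate. It stood at 1.42, 1.15 and 0.656 CPM untreated and 22.9, 19.5 and 13 CPM treated, and here treated library 3 was the lowest of the 3. The log2 fold change was 4.09 ± 0.55 (SE; edgeR adjusted p = 0.00355). Abca13, a large lipid transporter of the ABC family, stood at 1.99, 1.07 and 0.902 CPM untreated and 18.9, 38.4 and 13.6 CPM treated, highest in library 2 (4.15 ± 0.59, edgeR adjusted p = 0.00538). These 2 genes had the greatest changes under the naming rule, departed from the usual order of the treated libraries, and lie next to each other on chromosome 11, at 9118103 to 9136170 and 9191942 to 9684259.

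Dtymk, thymidylate kinase of dTTP synthesis, stood at 32.6, 33.3 and 28.4 CPM untreated and 14.1, 20 and 12.8 CPM treated. Every treated library was lower, and it fell by 1.01 on the log2 scale (SE 0.20, edgeR adjusted p = 0.0277). Other members of the list leaned the same way without passing, and in all 12 of 34 pyrimidine genes were lower at an unadjusted p under 0.05 and 3 were higher. Ptger4, the prostaglandin E2 receptor EP4, stood at 80.2, 64.2 and 56.6 CPM untreated and 125, 98.1 and 175 CPM treated (0.99 ± 0.23, edgeR adjusted p = 0.0488). Ptgs2, the inducible cyclooxygenase that makes its ligand's precursor and named after its values were seen, stood at 11.7, 8.4 and 3.73 CPM untreated and 42.9, 16.9 and 32.1 CPM treated, just short of the threshold (1.94 ± 0.45, adjusted p = 0.0525 by edgeR). Of all 42 eicosanoid genes tested, Ptger4 and Ptgs2 included, 3 were higher and 9 lower at an unadjusted p under 0.05.

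The purine, tryptophan and NAD, arginine and polyamine, amino acid transporter, metal ion, oxidative stress, sphingolipid and serine lists had 0 calls by edgeR. At an unadjusted p under 0.05 they had 13, 9, 13, 9, 10, 15, 11 and 8 genes in that order, DESeq2 called 3, 2, 1, 2, 0, 2, 0 and 0, and limma-voom called 0. Oaz1, antizyme of polyamine control, stood at 608, 702 and 558 CPM untreated and 439, 509 and 312 CPM treated, without overlap but also without passing (-0.57 ± 0.21, edgeR adjusted p = 0.188). Impdh2, of guanine nucleotide synthesis, stood at 141, 173 and 134 CPM untreated and 99.7, 132 and 73.2 CPM treated (-0.56 ± 0.21). Nampt, of NAD salvage, stood at 147, 138 and 113 CPM untreated and 225, 153 and 186 CPM treated (0.50 ± 0.22). Psap, the lysosomal prosaposin and the most abundant of the sphingolipid list, stood at 8270, 10600 and 8680 CPM untreated and 6030, 8830 and 3010 CPM treated, with overlapping groups (-0.62 ± 0.46). The iron store gene Ftl1 stood at 2950, 2360 and 1720 CPM untreated and 3260, 2730 and 3480 CPM treated (0.43 ± 0.23), also overlapping.

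All 4 metabolic genes passed without treated library 2. There were 2 without treated library 1, 2 without treated library 3, and 2, 1 and 1 without untreated library 1, 2 and 3. DESeq2 called all 4 and limma-voom 1.

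Growth-related lists leaned lower, with few calls. Of 61 ribosome biogenesis genes 5 had a value above 0, of 45 DNA replication genes 4, of 30 mitochondrial import genes 4 and of 78 mitochondrial ribosomal protein genes 19. Over all genes 47.7% had a value above 0. The medians of these lists were -0.41, -0.37, -0.34 and -0.23, beside -0.04 over all genes. Among their members 2 fell, both mitochondrial ribosomal proteins, beside 0.0829% of all genes. For the counts at an unadjusted p under 0.05 that follow, 9.89% of all genes were higher and 8.47% lower.

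Mrpl41 stood at 26.7, 32.7 and 24.5 CPM untreated and 7.94, 16.3 and 13.7 CPM treated, with treated library 1 the lowest. Mrpl12, which also binds the mitochondrial RNA polymerase, stood at 46.5, 65.1 and 48.1 CPM untreated and 30.6, 35.8 and 26.9 CPM treated. Neither overlapped between groups, and they fell by 1.14 (SE 0.26) and by 0.78 (SE 0.18) on the log2 scale (edgeR adjusted p = 0.0455 and 0.0488). Another 14 of the 78 were lower and 3 were higher at an unadjusted p under 0.05, and DESeq2 called 4 lower.

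In ribosome biogenesis edgeR called 0 of 61, with 20 at an unadjusted p under 0.05, all lower, 2 called by DESeq2 and 0 by limma-voom. Fbl, the methyltransferase fibrillarin of the nucleolus, stood at 78.7, 83 and 83 CPM untreated and 57.9, 56.7 and 27.2 CPM treated. The untreated values were nearly equal and all treated ones lower, without passing (-0.79 ± 0.28, edgeR adjusted p = 0.168). Npm1, nucleophosmin, stood at 777, 809 and 647 CPM untreated and 669, 651 and 513 CPM treated, with overlap (-0.28 ± 0.16).

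In DNA replication edgeR called 0 of 45, with 3 higher and 17 lower at an unadjusted p under 0.05, 5 called by DESeq2 and 0 by limma-voom. Pcna, the sliding clamp of DNA polymerase, stood at 200, 259 and 158 CPM untreated and 128, 142 and 84.1 CPM treated. The groups were apart by little, 142 against 158 CPM at the nearest, and Pcna did not pass (-0.80 ± 0.23, edgeR adjusted p = 0.0999). Among the treated libraries it had the order of the cDC1 marker sum, highest in library 2 and lowest in library 3.

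Other lists of the mitochondrion and of translation had 0 calls by edgeR. Among 83 nuclear respiratory chain genes 11 were at an unadjusted p under 0.05, among 13 mitochondrially encoded genes 0, among 30 import genes 10 and among 41 tRNA synthetase genes 5. DESeq2 called 0, 0, 2 and 2 of them, and limma-voom called 0. Atp5b, the catalytic subunit of ATP synthase, stood at 862, 956 and 751 CPM untreated and 897, 928 and 741 CPM treated, with the same mean in both groups within 1 CPM. Tomm20, an import receptor of the outer membrane, stood at 120, 137 and 119 CPM untreated and 101, 109 and 70.9 CPM treated (-0.42 ± 0.17). The mitochondrially encoded mt-Co2 stood at 6270, 4560 and 5900 CPM untreated and 8100, 4580 and 3440 CPM treated, which spans the untreated range on both sides (-0.05 ± 0.33).

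Hdac11, a histone deacetylase with fatty acylase activity that has been linked to interleukin 10 control, rose among 46 histone demethylases and deacetylases. It stood at 23.3, 11.7 and 9.31 CPM untreated and 54.3, 35 and 90.6 CPM treated (2.02 ± 0.36, edgeR adjusted p = 0.0156). Treated library 3 was the highest and untreated library 1 the highest of its group. The 3 calls of these lists were all kept without treated library 2, 1 was kept without treated library 1 or untreated library 1, and 0 without any of the other 3 libraries.

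Vesicle, cytoskeleton and ion transport genes added 7 increases. Rab8b, a GTPase of transport to the plasma membrane, stood at 465, 399 and 305 CPM untreated and 921, 661 and 1140 CPM treated. Every treated library lay above every untreated one, and Rab8b rose (1.22 ± 0.23, edgeR adjusted p = 0.0224). Rab29, a GTPase of the Golgi and lysosome that recruits LRRK2, stood at 23.8, 32.6 and 19.5 CPM untreated and 59.3, 40 and 62.2 CPM treated (1.09 ± 0.22). Rab26, of secretory vesicles, stood at 6.05, 3.53 and 2.62 CPM untreated and 17.9, 10.8 and 27.7 CPM treated (2.20 ± 0.49).

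Arhgap8, a GTPase-activating protein, stood at 7.69, 5.75 and 4.76 CPM untreated and 37.9, 20.7 and 67 CPM treated. It rose by 2.78 ± 0.44 (edgeR adjusted p = 0.00973). Myh10, a nonmuscle myosin II heavy chain, stood at 7.31, 3.07 and 3.36 CPM untreated and 18.7, 8.72 and 36.7 CPM treated (2.22 ± 0.50). The treated libraries of both genes followed the usual order, with library 3 the highest.

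Atp6v0a1, a membrane subunit of the proton pump that acidifies endosomes, stood at 61.1, 41.9 and 46.1 CPM untreated and 137, 83.3 and 174 CPM treated (1.40 ± 0.30, edgeR adjusted p = 0.0358). Its paralog Atp6v0a2, named after its values were seen, stood at 171, 224 and 253 CPM untreated and 106, 187 and 70.3 CPM treated, a value of opposite sign with overlapping groups (-0.83 ± 0.39, edgeR adjusted p = 0.272). Of 19 subunits 1 rose and 4 were higher at an unadjusted p under 0.05. Kcnk6, a potassium leak channel, stood at 115, 91.4 and 89.1 CPM untreated and 186, 163 and 239 CPM treated and rose (0.99 ± 0.21, edgeR adjusted p = 0.0328), the single call among 30 potassium channels.

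Of 48 autophagy genes edgeR called 0, with 11 at an unadjusted p under 0.05, 3 called by DESeq2 and 0 by limma-voom. Sqstm1, the autophagy receptor p62, stood at 600, 381 and 281 CPM untreated and 762, 556 and 954 CPM treated, where untreated library 1 reached into the treated range (0.85 ± 0.30). For all 7 vesicle, cytoskeleton and ion transport genes treated library 2 was the lowest and library 3 the highest treated library. All 7 passed without treated library 2, 1 without treated library 1, 1 without treated library 3, and 2, 0 and 0 without untreated library 1, 2 and 3.

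The greatest increases under the naming rule joined genes of unlike kinds, 20 in all, with a median log2 fold change of 3.39. Vdr, the nuclear receptor for vitamin D, stood at 9.41, 4.26 and 4.51 CPM untreated and 79.8, 38.4 and 125 CPM treated (3.73 ± 0.47, edgeR adjusted p = 0.00299). Nptx2, a secreted neuronal pentraxin, stood at 3.18, 1.46 and 0.738 CPM untreated and 23.4, 11 and 55 CPM treated (4.04 ± 0.64). Cdk5r1, the p35 activator of the kinase CDK5, stood at 7.50, 3.91 and 3.69 CPM untreated and 53.9, 32.8 and 99.7 CPM treated (3.62 ± 0.44). In all 3 the untreated library with the highest value was library 1, and the treated order was library 3, 1 and 2 from high to low.

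Several of the 20 are best known from neurons or other tissues. Map1b, a microtubule-binding protein of neurons, stood at 0.765, 1.38 and 0.574 CPM untreated and 10.7, 2.94 and 13.2 CPM treated (3.28 ± 0.59). Ramp3, a partner of calcitonin family receptors, stood at 8.34, 4.64 and 2.42 CPM untreated and 89.8, 13.9 and 73.6 CPM treated (3.51 ± 0.59). Dnah1, an axonemal dynein heavy chain, stood at 0.650, 0.384 and 1.07 CPM untreated and 4.93, 9.03 and 8.25 CPM treated (3.41 ± 0.64). Library 2 was thus the highest treated library for Dnah1 and by far the lowest for Ramp3.

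Enzymes, signaling regulators and adhesion proteins made up others. Rap1gap, which switches off the GTPase Rap1, stood at 2.22, 1.65 and 2.79 CPM untreated and 24.9, 11.5 and 29.9 CPM treated (3.32 ± 0.44). Gstt1, a glutathione transferase, stood at 0.918, 0.384 and 0.328 CPM untreated and 6.87, 4.32 and 8.21 CPM treated (3.55 ± 0.65). Pla1a, a phosphatidylserine phospholipase, stood at 0.765, 1.65 and 1.02 CPM untreated and 13, 2.04 and 22.7 CPM treated, so treated library 2 exceeded the untreated range by little (3.45 ± 0.72). Susd2, a membrane protein with a sushi domain, stood at 6.47, 3.30 and 2.79 CPM untreated and 36.6, 31.3 and 74.7 CPM treated (3.50 ± 0.53). Ndrg2 stood at 1.22, 1.42 and 1.48 CPM untreated and 17.9, 6.91 and 17.8 CPM treated (3.37 ± 0.55). All passed, with edgeR adjusted p between 0.00355 (Rap1gap) and 0.0320 (Pla1a). Other members of the 20 include Oasl2 (3.09 ± 0.33), Nectin2 (3.09 ± 0.41) and Cd70 (3.01 ± 0.47), beside Abca13, Upp1, Il1rn, Sema7a and Dll4 above. Of the 20, DESeq2 called all, limma-voom 7, and edgeR 14, 20 and 11 without treated library 1, 2 and 3 and 16, 7 and 7 without untreated library 1, 2 and 3.

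The 15 genes that fell include 11 under the naming rule, with a median of -1.08. Besides Dtymk, Mrpl41 and Mrpl12 they include Dnph1, a nucleotide hydrolase that clears hydroxymethyl-dUMP, at 8.69, 7.14 and 6.97 CPM untreated and 1.19, 2.43 and 1.43 CPM treated. It fell by 2.17 (SE 0.47, edgeR adjusted p = 0.0400) and had the second greatest decrease of the 11, after the vomeronasal receptor gene Vmn2r90 (-3.40 ± 0.72). Acad9, an assembly factor of respiratory complex I, stood at 31.7, 43 and 42.9 CPM untreated and 22.6, 20.6 and 20.3 CPM treated (-0.89 ± 0.20). Hirip3, a histone chaperone, stood at 11.4, 20.2 and 17.7 CPM untreated and 7.69, 6.16 and 7.53 CPM treated (-1.21 ± 0.26). The treated libraries of these last 2 were close to each other. Bzw2, a regulator of translation start (-0.93 ± 0.19), Gmfg, an actin regulator of leukocytes (-0.91 ± 0.21), Cxxc5 (-1.41 ± 0.31) and the long noncoding RNA gene AI504432 (-1.08 ± 0.24) complete the 11. DESeq2 called 13 of the 15, limma-voom 1, and edgeR 0, 13 and 0 without treated library 1, 2 and 3 and 5, 0 and 1 without untreated library 1, 2 and 3.

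For most genes that rose, the treated libraries differed widely: the median ratio of the highest to the lowest was 1.94, and it was over 2 for 112 of the 246. The 13 genes with the lowest ratios (1.1 to 1.24) were chosen by that ratio after the values were seen. Nabp1, a single-stranded DNA binding protein, stood at 221, 203 and 240 CPM untreated and 654, 582 and 637 CPM treated. The 3 treated libraries were nearly level, treated library 2 included, at a log2 fold change of 1.5 ± 0.20 (edgeR adjusted p = 0.00366). Etnk1, ethanolamine kinase of phospholipid synthesis, stood at 136, 129 and 138 CPM untreated and 250, 253 and 294 CPM treated (0.99 ± 0.14, edgeR adjusted p = 0.00625). Igtp, an interferon-inducible GTPase, stood at 28.3, 29.4 and 28.8 CPM untreated and 50.9, 46.2 and 51.5 CPM treated (0.78 ± 0.17). Other members include St3gal2, Zfp467, Grap, Trim34a, Bbx, Nck2, Dusp5, Oas1a and Pxmp2, with log2 fold changes from 0.75 (Nck2) to 1.82 (Pxmp2). Without untreated library 3, 2 of the 13 passed, beside 22 of the 261, and without treated library 3, 4 did, beside 48. With treated library 1 left out 3 passed, and without untreated library 1 and 2 there were 3 and 2, while all 13 passed without treated library 2.

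The same genes were looked up in the tumor-bearing mice, where Tumor-CD40 was compared with Tumor-NoCD40, 3 libraries each and none shared. There 116 of 18095 genes were higher past the threshold (0.641%) and 8 lower (0.0442%). Of the 18 interferon-family genes above, 6 passed with a tumor and all 18 had the same sign, with a median log2 fold change of 0.57. Of the 12 signaling genes, the 8 surface and serpin genes and the 7 vesicle, cytoskeleton and ion transport genes, none passed there by edgeR, and all had the same sign, with medians of 0.45, 0.41 and 0.39. Of the 15 genes that fell, none passed with a tumor by edgeR and 11 had the same sign, with a median of -0.40. Single pairs of values ranged from equal to far apart. Upp1 had 4.09 without and 4.35 with a tumor, Abca13 4.15 and 4.48, Mov10 1.26 and 1.08, and Pml 1.02 and 1.01. Jag1 had 1.94 without and 0.11 with a tumor, Serpinc1 2.08 and 0.01, Ptger4 0.99 and 0.06, and Ly75 1.12 and 0.20. No difference between the tumor states passed a test of the difference itself: by edgeR 0 of 18095 passed, the smallest adjusted p was 0.495, and 1773 genes had an unadjusted p under 0.05. These pairs of values therefore do not show that the agonist acted differently with a tumor.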

How the data were processed

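RNA of cDC1 from inguinal lymph nodes was purified with a Qiagen micro kit (RNeasy Plus) and, per the labels' protocols, sequenced from directional NEBNext Ultra II libraries. The authors deposited estimated counts per transcript (expected counts, not normalized) and TPM per transcript (scaled by length and to a common total), made with Salmon against mm10 per the submitters' processing notes. Version, annotation release and strand setting are not given in the sources used here. Here 136176 of 136288 transcripts were summed to 53458 genes with GENCODE M21 and rounded. In R 4.3.3 with edgeR 4.0.16, TMM normalization and filterByExpr by group (minimum count 10, minimum total 15) left 18095 genes. A fit to the 12 libraries with 4 group means (glmQLFit with legacy=FALSE, leaving 8 residual degrees of freedom) gave two-sided quasi-likelihood tests with Benjamini-Hochberg adjustment. The SE of a log2 fold change is its size divided by the square root of F. Alternatives used DESeq2 1.42.0 and limma 3.58.1, other normalization, filters and units, a block on the title prefix, and fewer libraries.

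The comparison, the lists of genes and the tests were chosen with earlier results of these data known, so no list is independent evidence. Named genes are up to 20 per direction with the greatest change among called genes whose groups do not overlap and reach a mean of at least 5 CPM on the higher side, up to 6 called members of each list by lowest p, and in lists with none the 2 members with the highest mean TPM, plus the marker genes; others are said to be chosen after their values were seen. Some genes and lists that meet this rule are not reported here. Promoter sequences are RefSeq's, for GRCm38.p6. On simulated counts for this comparison (200 of 18095 genes changed) edgeR found 23% of 2-fold and 79% of 4-fold changes, and 6.42% of its calls were false. The changed genes were drawn only from those with higher counts. Libraries were simulated independently, without the shared order of the real treated libraries, so these rates need not hold for the real data.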

Additional observations from a re-analysis of the deposited data

How the results depend on the processing

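The count of 261 genes past the threshold (246 higher, 15 lower) depended on the test and on single libraries. All genes of the 261 that were tested kept their sign under each of the 17 alternatives. The absence of overlap between the groups largely fixes that sign, so it is not separate evidence. DESeq2 called 922 genes (773 higher, 149 lower), limma-voom 120 (119 and 1) and edgeR with legacy=TRUE 198, of which 6 were lower. With no filter on low counts 401 passed (379 higher). Limma-trend called 31 genes (28 and 3) on log2(TPM + 1) and 29 (28 and 1) on log2(TPM + 0.1). A fit on only the 6 libraries gave 173 genes (167 and 6). With the title prefix as a replicate block over 12 libraries, 48 passed (42 and 6), 42 of them among the 261. Untreated library 3 shares its prefix with no other library of the series, so this fit in effect leaves it out of the comparison. With the replicate block on only the 6 libraries, 297 passed (238 and 59). Among these 6, treated library 3 also has a prefix of its own. The 297 calls therefore rest on libraries 1 and 2 of each group, with very few residual degrees of freedom. Deviations of libraries with the same prefix correlated at 0.00358 to 0.228 (0.0629 and 0.0644 for the NoTumor pairs) and those with different prefixes at -0.19 to 0.0877. Same-prefix values were all above 0 but most were small, while most values for different prefixes were below 0. The prefix was not used as pairing in the main test, and whether it marks a batch was not tested. Leaving out 1 library gave 22 to 947 genes in all, 21 to 654 higher and 0 to 293 lower, the most without treated library 2 and the fewest in all without untreated library 3. Without treated library 2 and untreated library 3, added after the data were seen, 202 passed (175 and 27). The cause of these moves was not tested, and where a library is left out the remaining ones of its group are assumed to vary like the other groups. Of the 69 named genes past the threshold, 68 passed with DESeq2, 28 with limma-voom, 52 with legacy=TRUE and 8 without untreated library 3. Totals of at least 22855143 counts leave genes under 1 CPM with few reads per library, so their fold changes are imprecise.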
